A study of Homo sapiens with 6 samples.

Results

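The 43 genes described here belong to the families of histone methyltransferases and histone demethylases, outside the COMPASS, PRC2, LSD1 and G9a groups. Some of their products act mainly on other proteins, and the SET domain of KMT2E has no known catalytic activity. The 43 genes were chosen by gene name, each name matched 1 row of the deposited gene tables, and together they are 43 of 62754 genes. RNA was sequenced from HUDEP-2, an established line of immortalised human erythroid precursors whose hemoglobin is mostly of the adult type. Cells labelled MEN1 knockdown carried the lentiviral hairpin MEN1sh2 against MEN1, which encodes menin, a subunit of the MLL1 and MLL2 complexes, and cells labelled WT carried the non-targeting hairpin Controlsh (n = 3 libraries each, named biological replicates 1 to 3 in the titles). Both groups were kept in the same serum-free medium with erythropoietin, stem cell factor, dexamethasone and doxycycline, both were selected with puromycin at 2 µg per ml from 24 h after infection for 48 h, and both were harvested at 72 h. The labels describe 1 hairpin against MEN1 in 1 cell line, so loss of menin cannot be told apart from other targets of that hairpin. Whether the replicates were separate transductions is not stated, so the p-values measure the spread between these libraries.

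Histone methyltransferases move a methyl group from S-adenosylmethionine to lysine or arginine residues, and most lysine enzymes use a SET domain. Demethylases remove it, either with a flavin cofactor, as KDM1B does, or with a JmjC domain that needs iron, oxygen and 2-oxoglutarate. Each mark has its own set of writers and erasers, so the genes are described below by the residue they act on or by enzyme family. In erythroid cells these enzymes have been studied in globin silencing and in the chromatin condensation that precedes loss of the nucleus.

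MEN1 itself checks the labels: with the MEN1 shRNA its level in replicates 1, 2 and 3 was 6.29, 6.44 and 6.88 TPM (a transcript abundance scaled for gene length and library), with the control shRNA 41.2, 39.6 and 37.1 TPM, 16.6% of the control mean (limma log2 change -2.42, SE 0.0803, adjusted p 8.5e-06). Depth, inferred from the ratio of deposited coverage to FPKM in genes with 1 transcript, was 5.56 to 10.81 gigabases of aligned sequence per library. The erythroid label was checked with 10 defining genes, and all 10 were at 1 TPM or more in at least 1 library. GATA1 was at 289 ± 2.26 TPM after the MEN1 shRNA and 277 ± 6.22 TPM in controls (SD, n = 3 each). Markers of other lineages were low: of 6 megakaryocyte genes 1 (ITGA2B), of 6 myeloid genes 1 (LYZ) and of 6 lymphoid genes 1 (CD3D) reached 1 TPM in any library. Their summed levels were 16.6 to 21.1 TPM with the MEN1 shRNA against 31.6 to 36.4 in controls for megakaryocyte genes, 0.728 to 1.80 against 2.25 to 2.72 for myeloid genes and 3.97 to 5.83 against 1.11 to 1.28 for lymphoid genes; PF4, PPBP and MS4A1 are listed at 0 in all 6 libraries. Of the mast cell and basophil genes, TPSAB1 was at 448 ± 47.4 TPM with the MEN1 shRNA and 644 ± 90.7 TPM in controls, MS4A2 was at 0.826, 0.749 and 1.12 TPM against 0.980, 2.55 and 1.32 TPM, and CPA3 and HDC stayed below 1 TPM in all 6 libraries. Genes of erythroid stage moved with the groups. The late-stage gene SLC4A1 was at 429 ± 23.5 against 112 ± 4.17 TPM and the early-stage receptor KIT at 122 ± 3.47 against 271 ± 18.6 TPM, and the part of maturation stage in the results below was not tested. Fewer cells of a stage and less RNA per cell cannot be told apart in these bulk libraries.

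All 43 genes passed the filter of 1 TPM or more in at least 3 of 6 libraries, and 28 of them passed the threshold of an adjusted p of 0.05 (limma, Benjamini-Hochberg over 14294 genes tested), 9 higher and 19 lower with the MEN1 shRNA. Over all genes tested 53.6% passed, 22.1% higher and 31.5% lower, against 65.1%, 20.9% and 44.2% of the 43 genes. A fall of at least 2-fold on the log2(TPM + 1) scale was met by 8 genes (18.6% against 6.9% of all genes tested): SMYD2, KDM1B, PRMT1, RIOX2, SMYD5, SETD6, SETDB2 and PRMT5. That count depended on the processing. It was 4 under median-of-ratios scaling (9.30% against 5.85% of all genes) and under quantile normalization (9.30% against 5.84%), 5 with FPKM, with globin and mitochondrial genes left out of the scaling or without MEN1 shRNA replicate 2, and 4 to 8 over all 16 alternatives. SMYD2, KDM1B, PRMT1 and RIOX2 met it under each of them. A rise of at least 2-fold was met by 0 of the 43 genes (background 4.96%). The median log2 fold change was -0.11 over the 43 genes and -0.07 over all genes tested, and the median absolute value was 0.405 and 0.368. The 43 genes were expressed at a median of 30.7 TPM, above the median of 15.6 TPM over all genes tested. With genes at a mean TPM of 5 or more only, 6345 of 10188 genes passed, 2524 higher and 3821 lower. Of the 43 genes, 42 met that filter and 28 of them passed, 9 higher and 19 lower. The 3 libraries of one group lay wholly above those of the other in 33 of the 43 genes (76.7%, background 61.8%), 10 higher (background 25.8%) and 23 lower (background 35.9%) with the MEN1 shRNA.

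**Figure D1:**
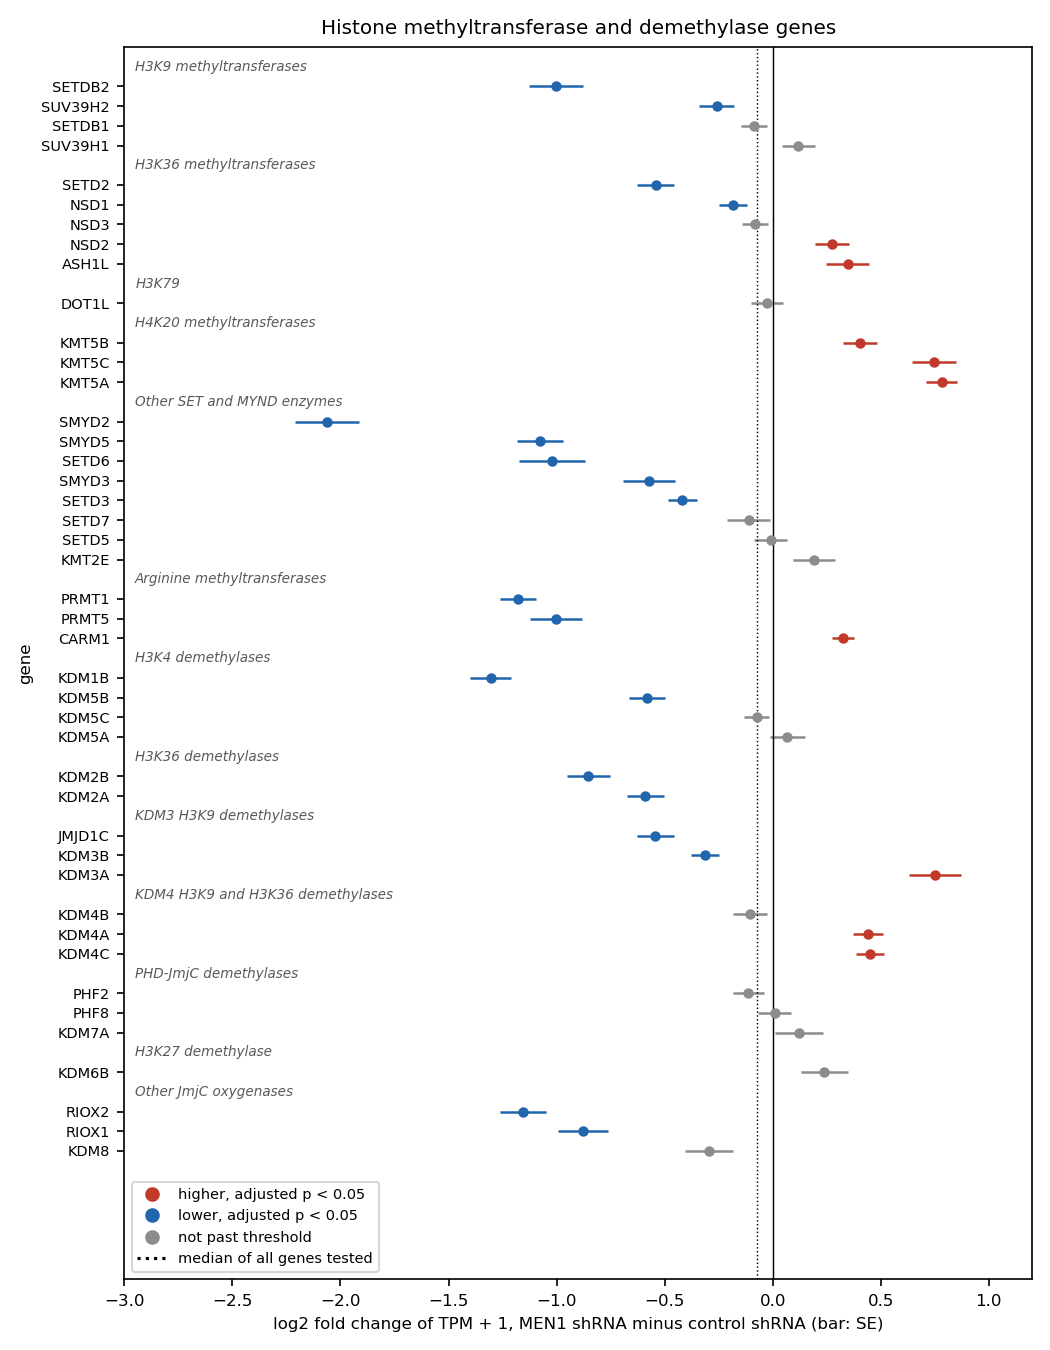
The log2 fold change of TPM + 1 (x axis, MEN1 shRNA minus control shRNA, bars are the SE from limma, n = 3 against 3) is plotted for each of the 43 genes (y axis). The genes are grouped by target residue or enzyme family. Red genes were higher, blue lower and grey did not pass the threshold, and the dotted line is the median of all genes tested. SMYD2 lies farthest to the left at -2.06 and KMT5A farthest to the right at 0.78.

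By level, PRMT1 stood first in the controls at 447 ± 8.18 TPM and KDM7A last at 4.71 ± 0.426 TPM (SD, n = 3). PRMT5 (191 ± 12.3 TPM), CARM1 (130.1 ± 3.65 TPM), KMT5A (117 ± 2.57 TPM) and NSD2 (116 ± 7.80 TPM) came next, and KMT5A and NSD2 did not differ in the controls beyond their spread. With the MEN1 shRNA the order at the top was different: KMT5A stood first at 202 ± 18.6 TPM, within the spread of PRMT1 at 198 ± 23.0 TPM, and CARM1 and NSD2 lay above PRMT5. SMYD2 went from rank 27 to rank 41 of the 43 genes and KDM1B from rank 11 to rank 32. The summed level of the 43 genes was 1836, 1761 and 1843 TPM in the MEN1 shRNA libraries and 2121, 2199 and 2160.0 TPM in the controls. PRMT1 had the largest difference in TPM of the 43 genes, but the summed difference is a net of falls and rises. PRMT5 also fell, from 191 to 95.9 TPM, and KMT5A rose, from 117 to 202 TPM.

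**Figure D2:**
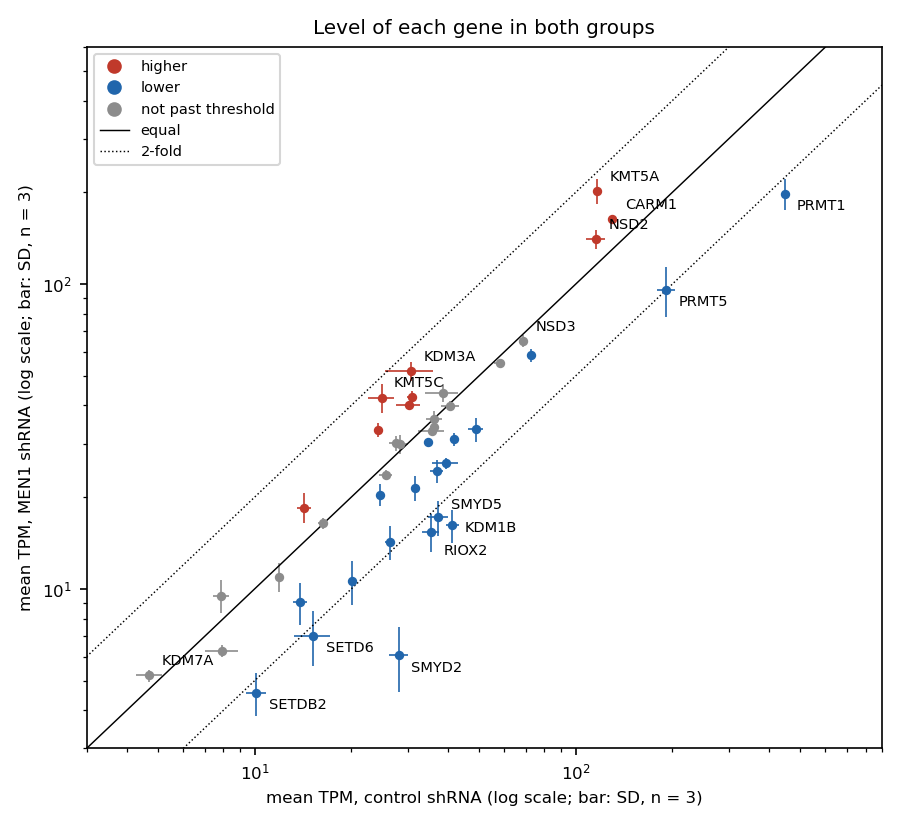
Mean TPM with the MEN1 shRNA (y axis, log scale) is plotted against mean TPM with the control shRNA (x axis, log scale) for the 43 genes, with bars for the SD of 3 libraries, a solid line for equal levels and dotted lines for 2-fold differences. PRMT1, KDM1B, RIOX2, SMYD5, SMYD2, SETD6 and SETDB2 lie below the lower dotted line, and KMT5A, at 173% of its control level, lies between the solid line and the upper dotted line.

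The bases before the start site are shown for the 3 genes that fell most and the 2 that rose most among the 20 whose RefSeq upstream sequence holds at least 150 bases free of annotated exons, so that regulatory sequence of genes that moved in opposite directions can be set side by side. Each line comes from the 250 bases before the RefSeq start (build GRCh38.p14) and ends where the first GENCODE v29 exon begins, 5′ to 3′ on the gene's strand. Capitals mark GC boxes (GGGCGG) and CCAAT boxes (CCAAT) on either strand, which read CCGCCC and ATTGG when they lie on the other one. The first 3 genes fell and the last 2 rose. They lie at chr1:214280909-214281101 for SMYD2, chr6:18155172-18155328 for KDM1B, chr2:73213995-73214221 for SMYD5, chr19:55339626-55339852 for KMT5C and chr1:43649899-43650148 for KDM4A, all on the plus strand.
SMYD2: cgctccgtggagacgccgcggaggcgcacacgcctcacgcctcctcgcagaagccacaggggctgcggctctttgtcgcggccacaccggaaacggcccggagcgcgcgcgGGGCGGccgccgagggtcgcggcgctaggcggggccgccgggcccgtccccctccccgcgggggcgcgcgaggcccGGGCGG
KDM1B: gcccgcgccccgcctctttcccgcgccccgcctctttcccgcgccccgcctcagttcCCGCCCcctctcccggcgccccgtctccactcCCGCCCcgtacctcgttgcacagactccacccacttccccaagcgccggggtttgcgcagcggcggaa
SMYD5: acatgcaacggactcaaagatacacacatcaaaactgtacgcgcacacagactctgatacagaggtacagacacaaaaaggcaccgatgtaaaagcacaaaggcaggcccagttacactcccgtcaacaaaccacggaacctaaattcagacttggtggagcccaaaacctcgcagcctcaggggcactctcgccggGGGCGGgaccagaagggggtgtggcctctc
KMT5C: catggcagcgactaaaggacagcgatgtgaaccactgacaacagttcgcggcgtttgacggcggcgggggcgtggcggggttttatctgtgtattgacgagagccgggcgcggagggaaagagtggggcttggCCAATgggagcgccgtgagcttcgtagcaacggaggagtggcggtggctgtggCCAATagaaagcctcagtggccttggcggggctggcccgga
KDM4A: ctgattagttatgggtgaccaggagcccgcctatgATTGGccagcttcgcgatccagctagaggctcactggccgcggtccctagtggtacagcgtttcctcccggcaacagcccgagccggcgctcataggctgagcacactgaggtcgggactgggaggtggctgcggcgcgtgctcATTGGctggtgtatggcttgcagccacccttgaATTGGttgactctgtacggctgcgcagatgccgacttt
The 3 sequences of genes that fell hold GC boxes (2 in SMYD2, 2 in KDM1B and 1 in SMYD5) and 0 CCAAT boxes. Those of KMT5C and KDM4A hold 2 and 3 CCAAT boxes and 0 GC boxes. The GC content was highest in SMYD2, at 81.9%, and lowest in SMYD5, at 54.2%. Over the whole 250 bases of every member with an entry the division was less sharp, with no test of the difference. A CCAAT box was present in 7 of 17 genes that fell and 5 of 9 that rose, and a GC box in 13 of 17 and 6 of 9.

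The arginine methyltransferases were the most abundant group, and they moved in both directions. PRMT1 and PRMT5 fell and CARM1 rose, so that 3 of 3 passed the threshold, which 53.6% of all genes tested also passed. PRMT1 (ENSG00000126457, chromosome 19, 49675786 to 49689029, plus strand) encodes the main enzyme of asymmetric arginine dimethylation, including that of arginine 3 of histone H4. PRMT1 was at 225, 186 and 184 TPM after the MEN1 shRNA, against 456, 439 and 447 TPM in the controls, 44.3% of the control mean (log2 change -1.18, SE 0.0827, adjusted p 4.4e-05). The groups did not overlap, and of the knockdown libraries replicate 1 lay closest to the controls. PRMT5 (ENSG00000100462, chromosome 14, 22920525 to 22929408, minus strand) makes symmetric dimethylarginine on histones and on spliceosomal Sm proteins, and has been studied in the silencing of gamma-globin. It was at 116, 85.8 and 85.7 TPM after the MEN1 shRNA against 179, 192 and 204 TPM (log2 change -1.003, SE 0.122, adjusted p 0.000376), with replicate 1 again nearest to the controls and no overlap. CARM1, a coactivator that methylates histone H3 at arginines, was at 159, 164 and 166 TPM against 132, 132 and 126 TPM, a small rise with little spread (log2 change 0.32, SE 0.0517, adjusted p 0.00134).

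All 3 writers of methylated lysine 20 of histone H4 rose (background 22.1% of all genes tested). KMT5A (also called SETD8; ENSG00000183955, chromosome 12, 123384132 to 123409353, plus strand) places the first methyl group and is needed for chromosome compaction, and KMT5B and KMT5C add the further methyl groups that mark silent chromatin. KMT5A was at 186, 198 and 222 TPM after the MEN1 shRNA and 115, 119.7 and 116 TPM in the controls, 173% of the control mean (log2 change 0.78, SE 0.0735, adjusted p 0.000123). KMT5C was at 37.2, 44.4 and 45.8 TPM against 27.5, 23.6 and 23.5 TPM (log2 change 0.75, SE 0.103, adjusted p 0.000674), and KMT5B at 41.1, 40.3 and 39.3 TPM against 29.2, 28.3 and 33.2 TPM (log2 change 0.405, SE 0.0772, adjusted p 0.00322). In each of the 3 genes the lowest knockdown library exceeded the highest control (background 25.8%). The within-library log2 ratio of KMT5B to KMT5C was -0.071 ± 0.185 with the MEN1 shRNA and 0.27 ± 0.20 in the controls (SD, n = 3 each). These ranges overlapped (2-sided exact permutation p = 0.2, lowest possible 0.1).

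The 3 SMYD genes among the 43, whose SET domain is split by a MYND zinc finger, all fell (background 31.5%). SMYD2 (ENSG00000143499, chromosome 1, 214281102 to 214337131, plus strand), which methylates p53, RB1 and HSP90 as well as histones, had the largest change of the 43 genes. It was at 7.70, 4.90 and 5.60 TPM after the MEN1 shRNA against 26.7, 30.4 and 27.3 TPM, 21.5% of the control mean (log2 change -2.06, SE 0.148, adjusted p 4.7e-05). SMYD5 was at 19.9, 16.0 and 15.8 TPM against 40.3, 36.5 and 35.1 TPM (log2 change -1.08, SE 0.105, adjusted p 0.000144), and SMYD3, known for methylating the kinase MAP3K2, at 10.3, 7.48 and 9.41 TPM against 14.1, 14.4 and 13.1 TPM (log2 change -0.57, SE 0.122, adjusted p 0.00532). The groups did not overlap in any of the 3 genes (background 35.9% lower), and SMYD2 fell relative to both other genes. The log2 ratio of SMYD2 to SMYD5 was -1.38 ± 0.137 with the MEN1 shRNA and -0.39 ± 0.163 in the controls, without overlap. The log2 ratio of SMYD2 to SMYD3 was -0.52 ± 0.141 with the MEN1 shRNA and 0.97 ± 0.0810 in the controls, so that SMYD2 went from above SMYD3 to below it. SMYD1 and SMYD4 lie outside the 43 genes and were named after their values were seen. SMYD4 did not pass the threshold in limma (9.16 ± 0.281 against 11.1 ± 1.47 TPM, log2 change -0.24, adjusted p 0.104). SMYD1 was listed at 0 TPM in every library.

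**Figure D3:**
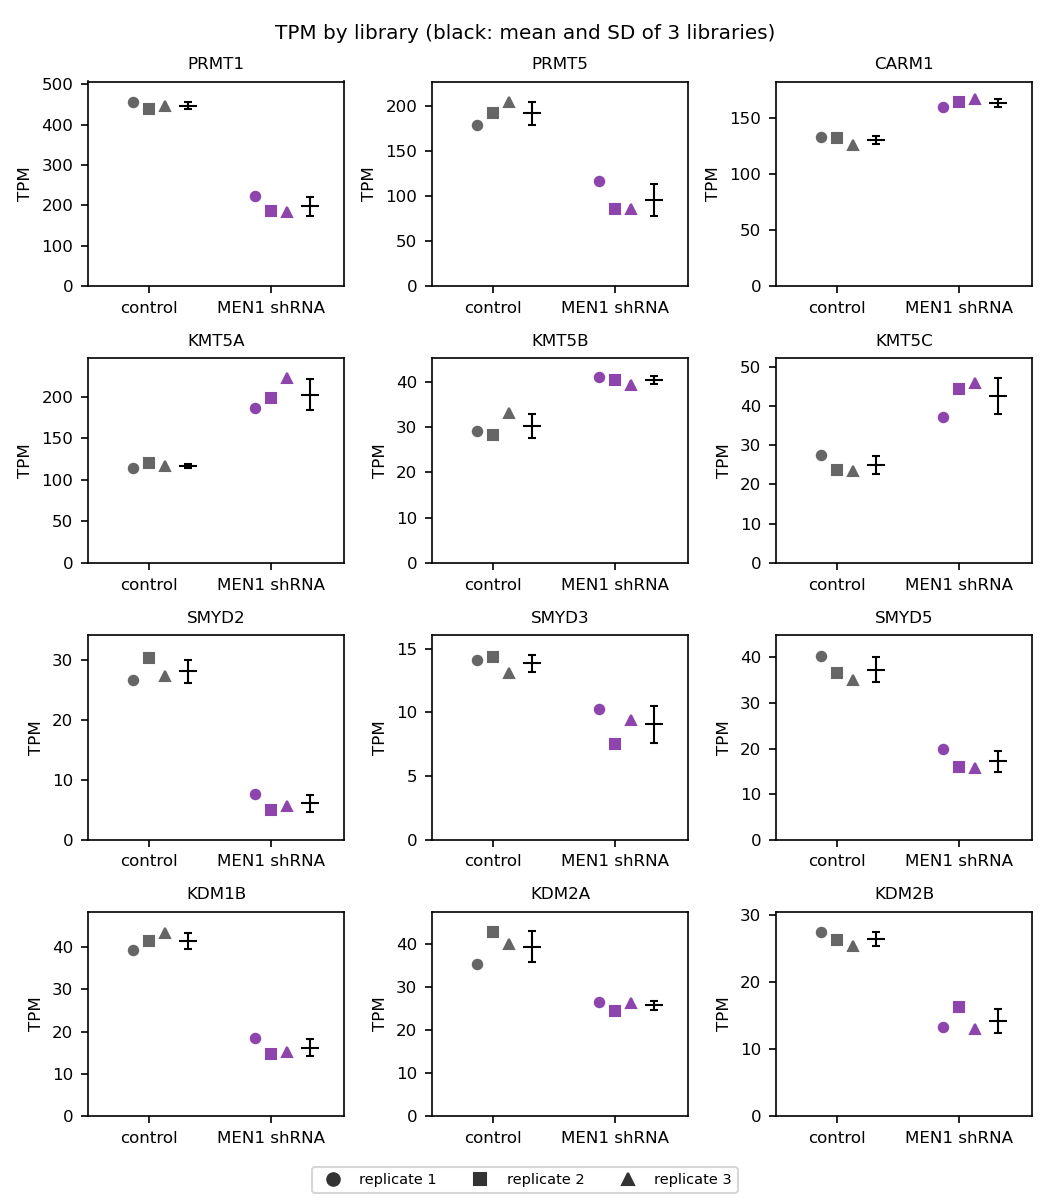
TPM (y axis, from 0) is plotted for each library of both groups (x axis), with replicates as symbols and the mean and SD of 3 libraries in black. The genes are PRMT1, PRMT5, CARM1, the H4K20 methyltransferases, SMYD2, SMYD3, SMYD5, KDM1B, KDM2A and KDM2B. In all 12 genes the 2 groups are separate, with KMT5A, KMT5B, KMT5C and CARM1 higher and the other 8 lower with the MEN1 shRNA.

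Among the remaining SET-domain genes with mainly non-histone or unsettled targets, SETD6 and SETD3 fell. SETD6, which methylates the NF-kB subunit RELA, was at 8.43, 5.58 and 7.09 TPM against 17.5, 13.8 and 14.4 TPM (log2 change -1.02, SE 0.153, adjusted p 0.000992). Its span overlaps CNOT1 on the opposite strand, at 13.2 times the mean level of SETD6, so its value depends on how reads were assigned to strands, which the sources used here do not give. CNOT1 was at 147 TPM with the MEN1 shRNA and 146 TPM in controls. SETD3, the actin histidine methyltransferase, was at 31.1, 29.4 and 32.6 TPM against 42.2, 42.7 and 40.4 TPM (log2 change -0.42, SE 0.0672, adjusted p 0.00140). SETD7, SETD5 and KMT2E did not pass the threshold. SETD5, the member with the smallest difference, was at 34.8, 34.7 and 38.8 TPM against 35.9, 38.7 and 34.5 TPM, and its log2 fold change of -0.0088 had a 95% interval of -0.19 to 0.17 and no steady sign across scalings. KMT2E, whose SET domain has no known catalytic activity, was at 44.1 ± 3.08 against 38.6 ± 4.56 TPM (log2 change 0.19, adjusted p 0.138). It passed the threshold as higher under median-of-ratios scaling (adjusted p 0.0286), under quantile normalization (0.0338) and without control replicate 2 (log2 fold change 0.28, adjusted p 0.0338). SETD7 was at 11.0 ± 1.18 against 11.9 ± 0.314 TPM (adjusted p 0.373).

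Of the 4 H3K9 methyltransferases, which build heterochromatin, 2 fell (background 31.5%) and 2 did not pass the threshold. SETDB2 (ENSG00000136169, chromosome 13, 49444274 to 49495003, plus strand) fell and SETDB1, which silences retroelements together with TRIM28, did not pass the threshold. SETDB2 was at 5.43, 4.04 and 4.24 TPM after the MEN1 shRNA and 10.9, 9.61 and 9.81 TPM in the controls (log2 change -1.003, SE 0.126, adjusted p 0.000421). SETDB1 was at 34.1 ± 1.07 against 36.3 ± 0.618 TPM, with a log2 fold change of -0.085 (95% interval -0.23 to 0.058), and its sign turned under median-of-ratios and quantile scaling. The log2 ratio of SETDB1 to SETDB2 was 2.66 ± 0.195 with the MEN1 shRNA against 1.75 ± 0.112 in the controls, without overlap. SUV39H2 fell slightly, from 24.6 ± 0.566 to 20.4 ± 1.65 TPM (log2 change -0.26, adjusted p 0.0275), and that call was lost under 9 of 16 alternatives (adjusted p 0.0105 to 0.227). Where it was lost by leaving out 1 library, the log2 fold change stayed between -0.28 and -0.21, and it was smaller under median-of-ratios scaling (-0.17), with globin and mitochondrial genes left out (-0.196) and under quantile normalization (-0.12). SUV39H1 was at 30.1 ± 1.70 against 27.7 ± 1.45 TPM (log2 change 0.12, adjusted p 0.222), and it passed as higher under quantile normalization (log2 fold change 0.22, adjusted p 0.0428).

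The H3K36 methyltransferases divided. SETD2 (ENSG00000181555, chromosome 3, 47016428 to 47164113, minus strand), the enzyme that trimethylates H3K36 behind elongating RNA polymerase II, fell, at 35.6, 29.8 and 34.7 TPM after the MEN1 shRNA against 46.3, 49.0 and 51.5 TPM (log2 change -0.54, SE 0.0860, adjusted p 0.00133), with no overlap between groups. NSD2, the most abundant of the dimethylating enzymes, was at 140.2 ± 10.2 against 116 ± 7.80 TPM (log2 change 0.27, adjusted p 0.0181), and ASH1L at 18.5 ± 2.10 against 14.3 ± 0.723 TPM (log2 change 0.35, adjusted p 0.0197), both higher. NSD1 was lower, at 30.4 ± 0.943 against 34.7 ± 0.824 TPM (log2 change -0.18, adjusted p 0.0406). Over the alternatives the adjusted p ran from 0.00290 to 0.0590 for NSD2, 0.00380 to 0.0624 for ASH1L and 0.0311 to 0.238 for NSD1, so none of these 3 calls held throughout: each was lost without MEN1 shRNA replicate 3 (log2 fold change 0.22, 0.26 and -0.20) and without control replicate 1 (0.22, 0.31 and -0.20). The call of NSD1 was also lost when any other library was left out, with FPKM, with eBayes without a trend, and under the rescaling alternatives, where the fold change itself was smaller: -0.098 with median-of-ratios scaling, -0.090 with quantile normalization and -0.12 with globin and mitochondrial genes left out. NSD3 did not pass the threshold (65.1 ± 2.88 against 68.8 ± 1.99 TPM, log2 change -0.08, adjusted p 0.301). The log2 ratio of NSD1 to NSD2 was -2.17 ± 0.0692 with the MEN1 shRNA and -1.71 ± 0.0671 in the controls, without overlap.

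DOT1L, the methyltransferase of H3K79 that acts with MLL fusion proteins in leukemia, was at 41.1, 38.1 and 40.6 TPM after the MEN1 shRNA and 39.6, 43.7 and 38.8 TPM in the controls, and these ranges overlapped (log2 change -0.026, SE 0.0720, adjusted p 0.789, 95% interval -0.19 to 0.14). The sign of this difference changed with the scaling. Of 6 MLLT and AFF genes chosen as partners, 4 fell (background 31.5%), 1 rose (background 22.1%) and 1 did not pass the threshold. Their difference from DOT1L was not tested, and whether each protein binds DOT1L itself was not examined. MLLT1 fell from 48.5 ± 2.52 to 23.0 ± 3.52 TPM (log2 change -1.05, adjusted p 0.000197), MLLT3 from 264 ± 9.73 to 133 ± 22.0 TPM (log2 change -0.99, adjusted p 0.000272), AFF1 from 64.2 ± 4.24 to 38.9 ± 2.28 TPM (log2 change -0.71, adjusted p 0.000207) and MLLT10 from 39.5 ± 1.91 to 29.5 ± 2.58 TPM (log2 change -0.41, adjusted p 0.00435). AFF4 rose from 26.8 ± 0.984 to 47.6 ± 6.32 TPM (log2 change 0.795, adjusted p 0.000486), and MLLT6 was not past the threshold (log2 change 0.19, adjusted p 0.0544).

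These MLLT and AFF genes belong to a list of 31 genes chosen as partners of the enzymes described here. Of these 31, 21 passed the threshold, 8 higher and 13 lower, or 67.7% against 53.6% of all genes tested. The lowest adjusted p-values were those of RIOK1 (log2 change -0.95, adjusted p 3.7e-05) and WDR77 (log2 change -0.83, adjusted p 9.3e-05), which both bind PRMT5, and MORF4L1, a reader of methylated H3K36 that binds ASH1L (log2 change 0.58, adjusted p 0.000118). All 4 PRMT5 partners in the list were lower (background 31.5%). RIOK1 went from 89.8 ± 1.78 to 45.97 ± 2.75 TPM and WDR77 from 58.1 ± 3.04 to 32.2 ± 1.94 TPM. CLNS1A went from 216 ± 11.7 to 111 ± 23.7 TPM (adjusted p 0.000722) and COPRS from 39.5 ± 1.55 to 30.4 ± 2.31 TPM (adjusted p 0.00486). GLYR1, the cofactor of KDM1B, rose from 106 ± 3.94 to 142 ± 2.7 TPM (log2 change 0.42, adjusted p 0.000493) while KDM1B fell. The 3 genes of the HUSH complex that works with SETDB1 had small differences: MPHOSPH8 0.021, TASOR 0.084 and PPHLN1 -0.21 on the log2 scale, of which PPHLN1 passed the threshold (adjusted p 0.0295). TRIM28 was at 489 ± 22.3 against 531 ± 38.0 TPM (adjusted p 0.193). Not all heterochromatin genes of the list moved so little. ATF7IP rose from 16.6 ± 1.13 to 23.5 ± 1.43 TPM (log2 change 0.48, adjusted p 0.00223). CBX1 rose from 33.2 ± 5.65 to 57.8 ± 2.97 TPM (log2 change 0.79, adjusted p 0.000926). CBX3 fell (log2 change -0.18, adjusted p 0.0276) and CBX5 did not pass the threshold (log2 change -0.20, adjusted p 0.0581). Apart from RIOK1, WDR77, MORF4L1 and MLLT1, the partner genes were named after their values were seen.

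Of the demethylases of H3K4, KDM1B (ENSG00000165097, chromosome 6, 18155329 to 18223854, plus strand) fell most. It encodes LSD2, the flavin-dependent relative of LSD1, and was at 18.5, 14.8 and 15.3 TPM after the MEN1 shRNA and 39.4, 41.4 and 43.2 TPM in the controls, 39.2% of the control mean (log2 change -1.31, SE 0.0964, adjusted p 5.2e-05). The KDM5 genes encode JmjC demethylases of trimethylated H3K4. KDM5B fell, at 22.1, 25.9 and 25.1 TPM against 35.9, 39.0 and 35.9 TPM (log2 change -0.58, SE 0.0829, adjusted p 0.000782), with no overlap. KDM5A was at 29.8 ± 2.08 against 28.4 ± 1.58 TPM (log2 change 0.068, adjusted p 0.505) and KDM5C at 55.1 ± 0.579 against 58.0 ± 2.14 TPM (log2 change -0.073, adjusted p 0.322). KDM5B lay above KDM5A in every control library and below it in every MEN1 shRNA library, with a log2 ratio of KDM5A to KDM5B of -0.37 ± 0.0363 and 0.28 ± 0.0203.

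Both H3K36 demethylases of the KDM2 type, which bind unmethylated CpG islands, fell (background 31.5%). KDM2B, which also brings a Polycomb repressive complex to those islands, was at 13.3, 16.3 and 13.1 TPM after the MEN1 shRNA and 27.5, 26.3 and 25.5 TPM in the controls (log2 change -0.85, SE 0.0996, adjusted p 0.000306). KDM2A was at 26.5, 24.5 and 26.4 TPM against 35.5, 42.8 and 40.0 TPM (log2 change -0.59, SE 0.0853, adjusted p 0.000836). The ratio of KDM2A to KDM2B overlapped between groups (2-sided exact permutation p = 0.3, lowest possible 0.1). RNF34, which overlaps KDM2B on the opposite strand, averaged 28.6 TPM with the MEN1 shRNA and 39.1 TPM in controls, 1.66 times the level of KDM2B.

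The KDM3 genes, whose products act on mono- and dimethylated H3K9, moved in opposite directions. KDM3A, a gene induced by hypoxia, rose, at 48.5, 51.2 and 55.8 TPM after the MEN1 shRNA against 28.0, 36.6 and 27.2 TPM (log2 change 0.75, SE 0.119, adjusted p 0.00133). Control replicate 2 stood above the other controls but below every MEN1 shRNA library. JMJD1C fell, at 22.8, 19.1 and 22.5 TPM against 32.3, 31.3 and 31.4 TPM (log2 change -0.54, SE 0.0856, adjusted p 0.00126), and KDM3B fell from 72.8 ± 2.43 to 58.4 ± 2.88 TPM (log2 change -0.31, adjusted p 0.00407). The log2 ratio of KDM3A to JMJD1C was 1.24 ± 0.166 with the MEN1 shRNA and -0.059 ± 0.242 in the controls, and that of KDM3A to KDM3B -0.17 ± 0.146 and -1.23 ± 0.185.

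The KDM4 genes encode demethylases of trimethylated H3K9 and H3K36, and 2 of the 3 rose by like amounts (background 22.1%). KDM4C was at 43.2, 40.4 and 44.2 TPM against 29.8, 31.6 and 31.3 TPM (log2 change 0.45, SE 0.0663, adjusted p 0.000925) and KDM4A at 31.3, 34.8 and 33.6 TPM against 23.5, 25.0 and 24.2 TPM (log2 change 0.44, SE 0.0707, adjusted p 0.00137), with no overlap in either. KDM4B was at 33.0 ± 0.785 against 35.6 ± 3.24 TPM and did not pass the threshold (log2 change -0.105, adjusted p 0.307). The ratio of KDM4A to KDM4B was without overlap between groups (0.011 ± 0.0443 against -0.53 ± 0.102 on the log2 scale), and that of KDM4A to KDM4C overlapped (2-sided exact permutation p = 0.9, lowest possible 0.1).

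None of the PHD-finger JmjC demethylases PHF2, PHF8 and KDM7A, nor the H3K27 demethylase KDM6B, passed the threshold (0 of 4, background 53.6%). PHF8 was at 16.7, 15.6 and 16.9 TPM after the MEN1 shRNA and 16.1, 16.9 and 15.9 TPM in the controls, and its log2 fold change of 0.01 had a 95% interval of -0.17 to 0.19. PHF2 was at 22.7, 24.4 and 23.8 TPM against 24.5, 26.8 and 25.6 TPM (log2 change -0.11, SE 0.0715, adjusted p 0.222), a small difference in which the groups did not overlap. KDM7A was the least abundant of the 43 genes in the controls and was at 5.21 ± 0.237 TPM with the MEN1 shRNA (adjusted p 0.384). KDM6B, at 8.70, 8.99 and 10.8 TPM against 7.46, 8.37 and 7.81 TPM, was higher in every MEN1 shRNA library (log2 change 0.24, SE 0.111, adjusted p 0.106), and it passed the threshold under the 3 alternatives that rescale the libraries, with log2 fold changes of 0.303 to 0.358.

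The other JmjC oxygenases, RIOX1 and RIOX2, which hydroxylate histidines of ribosomal proteins, both fell (background 31.5%). RIOX2 (ENSG00000170854, chromosome 3, 97941818 to 97972457, minus strand) was at 17.9, 14.4 and 13.9 TPM after the MEN1 shRNA and 33.2, 35.3 and 37.6 TPM in the controls (log2 change -1.16, SE 0.108, adjusted p 0.000118). RIOX1 was at 12.6, 9.45 and 9.78 TPM against 20.8, 20.003 and 19.7 TPM (log2 change -0.88, SE 0.114, adjusted p 0.000503). In both, replicate 1 was the nearest MEN1 shRNA library to the controls. KDM8, at 6.27 ± 0.298 against 7.94 ± 0.932 TPM, did not pass the threshold (log2 change -0.29, adjusted p 0.0596). It passed as lower with array weights (adjusted p 0.0389), with eBayes without a trend (0.0446) and without control replicate 1 (log2 fold change -0.38, adjusted p 0.0288).

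Related genes were compared within each library for 24 pairs, since a ratio of 2 genes in a library does not change with the scaling of that library except through the pseudocount. The groups did not overlap in 18 of the 24 ratios. That count is a description: no share over other gene pairs was computed, and single genes were without overlap in 61.8% of all genes tested. For each of these the exact permutation test (2-sided) gave p = 0.1, the lowest value possible with 3 against 3 libraries, and 0.133 after Benjamini-Hochberg adjustment over the 24 pairs, so no pair could pass 0.05. The widest shifts on the log2 scale were -1.502 for PRMT1 to CARM1, -1.49 for SMYD2 to SMYD3 and 1.29 for KDM3A to JMJD1C. PRMT1 exceeded CARM1 by a log2 ratio of 1.77 ± 0.0466 in the controls and 0.27 ± 0.191 with the MEN1 shRNA.

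**Figure D4:**
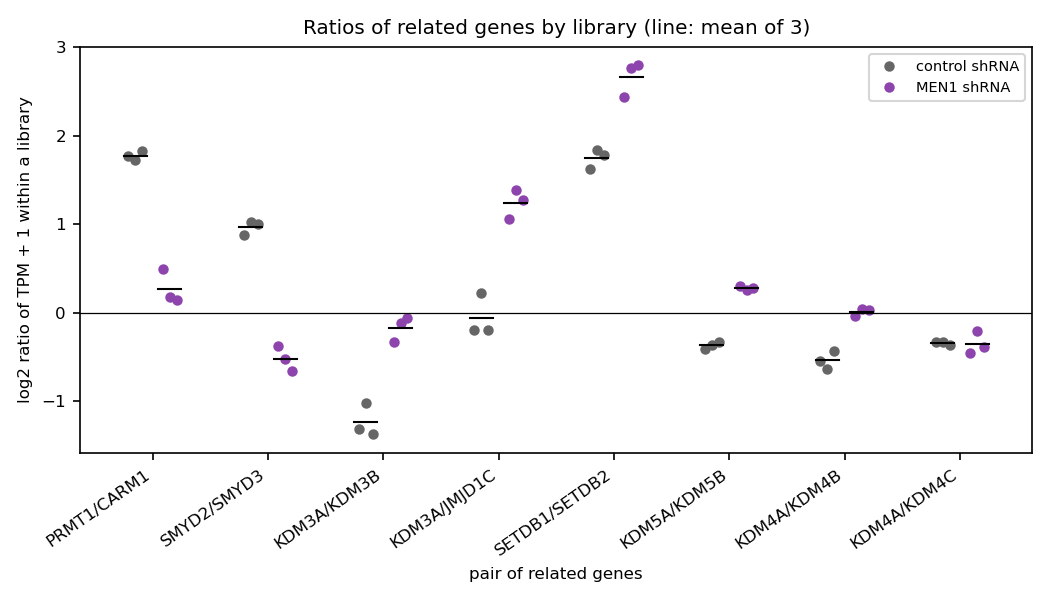
The log2 ratio of TPM + 1 of 2 related genes within a library (y axis) is plotted for 8 of the 24 pairs (x axis), with 1 point per library and a line at the mean of 3. The 2 groups are apart in the first 7 pairs, and in KDM4A to KDM4C, where both genes rose, they overlap.

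Start-site stretches were compared over the 39 of 43 genes with an entry in the RefSeq promoter table (250 bases, exons of other transcripts included), as a description without a test. GC boxes were found in 27 of 39 stretches (69.2%) and in 68.1% of the 9636 tested genes with an entry. CCAAT boxes were found in 14 of 39 (35.9%, against 36.1%). The E-box CACGTG was found in 6 of 39 (15.4%, against 9.50%): JMJD1C, KDM4B, KDM4C, NSD1, SETD6 and SETDB1. AGATAA or TGATAA, the core bound by GATA factors, was found in 3 of 39 (7.69%, against 7.07%), in KMT5C, KDM8 and PHF8. The motif CCGGAA of ETS factors was found in 7 of 39 (17.9%, against 27.1%), SMYD2 among them, and TATAAA in 0 of 39 (5.41% of all). Both strands were searched, the GATA forms share GATAA, matches of different motifs may overlap, and the motifs were chosen after the expression values had been seen.

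Replicate 1 was the MEN1 shRNA library nearest to the controls in 15 of the 19 genes that fell and in 7 of the 9 that rose, and the same held for 64.2% of all genes called lower and 66.5% of all called higher. Leaving each library out in turn, 24 to 27 of the 43 genes passed the threshold. A gene on the opposite strand with at least 10% of the member's level overlapped 13 of the 43 genes, and 0 had such a gene on the same strand. Besides SETD6 and KDM2B, this concerns CARM1, RIOX2, JMJD1C and SUV39H2 among genes that passed the threshold with an overlapping gene at 0.117 to 0.498 times their level, and ASH1L with its antisense gene ASH1L-AS1 at 0.128 times. The same doubt about strand bears on genes that did not pass. SETDB1 was overlapped by CERS2 at 5.29 times its level (202 TPM with the MEN1 shRNA and 170.0 TPM in controls), and DOT1L by AP3D1 at 2.81 times (124 and 103 TPM) and PLEKHJ1 at 1.49 times (66.3 and 54.0 TPM). NSD3 was overlapped by DDHD2 at 0.934 times its level (82.4 TPM with the MEN1 shRNA and 42.7 TPM in controls). KDM5A, KMT2E and SETD5 were overlapped by genes at 0.190 to 0.650 times their level.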

How the data were processed

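Poly(A) RNA from 6 HUDEP-2 libraries was measured, 3 of the MEN1 hairpin and 3 controls, grouped by sample title. Per the submitters' processing notes, the build was hg38 and the tools FastQC, Trimmomatic, STAR 2.7.1a, Picard 2.20.4 and StringTie 2.0.4. For the annotation and for the use of strand, the sources used here give nothing, although the library kit was directional per the labels. The deposited tables hold 62754 genes each. Per the file headers they give coverage per base (a signal not scaled for depth), FPKM and TPM. The deposited FPKM and TPM are the authors' values, and both are relative to the library, so each gene's value depends on all others. In control replicate 2, residues below 0 in the deposited TPM or coverage of 2 genes were set to 0, which is why those columns count as other values.

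The 43 genes and all lists were chosen with earlier results of these data known. Genes at 1 TPM or more in at least 3 of 6 libraries were tested as log2(TPM + 1), which understates the change of low genes, with limma 3.58.1 in R 4.3.3 (eBayes with a trend, 2-sided, Benjamini-Hochberg over 14294 genes, threshold 0.05). No replicate block was used. TPM was tested because no read counts were used here, and its precision follows the inferred depth. Aligned bases came from coverage over FPKM in genes with 1 transcript in GENCODE v29, and 94.9% to 95.4% of these genes gave the same ratio within 0.1%. Pairs were tested with the exact permutation test of SciPy 1.17.1. On simulated data of 14294 genes with 100 changed at each size, limma recovered 69% of log2 changes of 1 and 27% of changes of 0.5, and 6.80% of calls were false. Only these genes were changed there, a far smaller share than the 53.6% that passed in the data. The Benjamini-Hochberg cutoff depends on that share, so the simulated percentages do not describe the fit to the data. Values in every library are printed for genes past the threshold with an absolute log2 fold change of 0.4 or more. They are also printed for the lowest adjusted p in each of 13 groups by residue or enzyme family and for the 3 smallest differences. CARM1 was added after its values were seen. From each further list at most 4 genes with the lowest adjusted p are named, unless said otherwise. Start-site sequences are from RefSeq (GRCh38.p14), matched by symbol; the rule for those printed was set after the values were seen. Python 3.11.15, pandas 2.3.3, NumPy 2.4.6 and matplotlib 3.10.9 were used.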

Additional observations from a re-analysis of the deposited data

How the results depend on the processing

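The counts of genes past the threshold, the log2 fold change of MEN1, the count of pairs without overlap and the counts in the further lists stayed on their side of the threshold or within 1.5 times under every alternative run (for the pairs, the other pseudocount, FPKM and leaving out each library). The count of genes that fell at least 2-fold, 8 of 43, did not: it was 5 with FPKM, 4 with median-of-ratios scaling, 5 with globin and mitochondrial genes left out of the scaling and 4 with quantile normalization, and 5 to 8 with 1 library left out. Under the 16 alternatives 24 to 29 of the 43 genes passed, 7 to 12 higher and 17 to 20 lower. Of 28 genes called, 24 were called under each of them with the same direction, and none changed sign; the calls of SUV39H2, NSD1, NSD2 and ASH1L were lost under some, and the cause was not tested.

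With the replicate number as a block, 26 of the 43 genes passed, 9 higher and 17 lower, and the calls lost were those of SUV39H2 (adjusted p 0.0526) and NSD1 (0.0882). The labels share replicate numbers, but deviations of same-numbered libraries were hardly correlated (0.0171, -0.0265 and -0.0124 for replicates 1, 2 and 3), so the numbers were not taken as pairs.

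Signs of the log2 fold change turned in some genes that did not pass, and the cause was not tested. With FPKM the values were 0.022 for SETD5 and 0.0054 for DOT1L. With median-of-ratios scaling they were 0.077 for SETD5, 0.00027 for SETDB1, 0.0065 for NSD3, 0.060 for DOT1L and 0.014 for KDM5C. With globin and mitochondrial genes left out of the scaling they were 0.057 for SETD5 and 0.040 for DOT1L. With quantile normalization they were 0.078 for SETD5, 0.015 for SETD7, 0.0058 for SETDB1, 0.057 for DOT1L, 0.015 for KDM5C and 0.0087 for PHF2. With array weights PHF8 was at -0.0051. With 1 library left out, values ran from -0.061 to 0.035 for SETD5, from -0.059 to 0.026 for DOT1L and from -0.011 to 0.044 for PHF8. Median-of-ratios scaling, rescaling without globin and mitochondrial genes and quantile normalization moved the median of all genes by 0.059 to 0.078, and FPKM by 0.012.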

Other observations

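A further list held 18 enzymes that supply or use S-adenosylmethionine and 2-oxoglutarate, the substrates of the methyltransferases and JmjC demethylases. Of the 16 that passed the filter, 9 passed the threshold in limma, 2 higher and 7 lower (56.2%, against 53.6% of all genes tested). IDH1, which makes 2-oxoglutarate in the cytosol, rose from 76.7 ± 3.12 to 144 ± 13.3 TPM (log2 change 0.89, adjusted p 9.6e-05). AHCY, which clears the product S-adenosylhomocysteine, fell from 263 ± 4.99 to 163 ± 14.8 TPM (log2 change -0.69, adjusted p 0.000190), and MTR and MTRR, which regenerate methionine, fell from 31.1 ± 1.74 to 22.4 ± 1.22 TPM (log2 change -0.46, adjusted p 0.00168) and from 27.9 ± 0.491 to 16.1 ± 1.6 TPM (log2 change -0.76, adjusted p 0.000281). MAT2A, the S-adenosylmethionine synthetase, named after its values were seen, was at 249.5 ± 1.55 against 254 ± 19.1 TPM and did not pass the threshold (adjusted p 0.791).

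Among 21 enzymes of the same folds outside the 43 genes, 18 passed the filter and 9 the threshold in limma, 2 higher and 7 lower. That is 50.0%, against 53.6% of all genes tested (22.1% higher and 31.5% lower). PRMT6, which methylates arginine 2 of histone H3, had levels of 11.4, 9.58 and 9.21 TPM after the MEN1 shRNA, against 35.2, 34.4 and 39.6 TPM in the controls (log2 change -1.76, adjusted p 2.6e-05), a larger fall than those of PRMT1 and PRMT5. PRMT2 rose from 87.0 ± 6.15 to 132 ± 20.3 TPM (log2 change 0.59, adjusted p 0.00369), and JMJD7 and SETD9 fell (log2 fold changes -1.05 and -0.88, adjusted p 0.00282 and 0.00731). The differences between these genes and the arginine methyltransferases above were not tested.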
